A study of Mus musculus with 14 samples.

Results

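The somatostatin receptor genes Sstr1, Sstr2, Sstr3 and Sstr4 were taken as those rows of the authors' raw count tables whose Ensembl identifiers carry these symbols in the GRCm38 annotation, which gave 4 of 53465 genes. The tables hold bulk RNA sequencing of the anterior cingulate cortex, a midline frontal area of the mouse brain. The strains were AKR/J (AKR) and C57BL/6NJ (B6N), each given as naive (4 libraries per strain) and as OFL, the submitters' label for tissue from mice that had gone through observational fear conditioning (3 libraries per strain), a test in which a mouse watches another being shocked. The labels give no transgene, drug, age, sex or time after the test for any group, and do not say whether each library came from 1 animal or a pool, so that the p-values below measure only the spread between libraries, which may be technical. Defining markers of cortical excitatory neurons were present in every library, with a summed level of 933.6 to 1882 CPM (counts scaled by library size, with TMM factors), and those of the choroid plexus summed to at most 1.91 CPM.

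Somatostatin is a peptide released by a large class of inhibitory interneurons, and the related peptide cortistatin binds the same receptors. The receptors span the membrane with a bundle of helices and act through inhibitory G proteins (Gi/o): they lower cyclic AMP, open inwardly rectifying potassium channels and close presynaptic calcium channels, and so dampen the cell that carries them. The members differ in where they sit in the cell, with Sstr3 known for its place in the primary cilium of neurons and Sstr2 and Sstr4 for the cell body and dendrites of cortical neurons.

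Sstr1 (ENSMUSG00000035431) lies on chromosome 12 at 58211772 to 58214444 on the plus strand of GRCm38, Sstr2 (ENSMUSG00000047904) on chromosome 11 at 113619342 to 113626028 on the plus strand, Sstr3 (ENSMUSG00000044933) on chromosome 15 at 78537008 to 78544685 on the minus strand and Sstr4 (ENSMUSG00000037014) on chromosome 2 at 148395344 to 148396767 on the plus strand. The exons of each cover 2046, 2143, 4320 and 1424 bases, in that order, of which 1173, 1152, 1284 and 1155 are coding. Sstr4 has a single exon. None of their exons shared a base with an exon of another annotated gene on either strand. The genes are related in sequence, which matters for how reads are assigned. The stretches below encode part of the seventh membrane span, which carries the signature motif of the family, with capitals at the 38 of 60 positions that are identical in all 4 genes (63.3%). They come from the GRCm38 transcripts and lie at chr12:58213514-58213573 on the plus strand (Sstr1), chr11:113625145-113625204 on the plus strand (Sstr2), chr15:78539568-78539627 on the minus strand (Sstr3) and chr2:148396347-148396406 on the plus strand (Sstr4).
Sstr1: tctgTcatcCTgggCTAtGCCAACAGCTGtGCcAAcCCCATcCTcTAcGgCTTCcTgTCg
Sstr2: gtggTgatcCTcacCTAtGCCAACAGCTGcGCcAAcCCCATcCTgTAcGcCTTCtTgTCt
Sstr3: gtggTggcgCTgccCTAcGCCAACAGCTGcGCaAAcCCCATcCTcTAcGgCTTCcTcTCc
Sstr4: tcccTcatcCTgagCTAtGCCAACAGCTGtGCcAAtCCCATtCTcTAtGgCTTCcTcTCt
Differing bases break up the capitals, which mark identity in all 4 genes. Single pairs shared longer runs within the stretch, up to the 23 bases common to Sstr1 and Sstr3. Over the whole coding sequences, aligned bases were identical at 61.2% (Sstr2 and Sstr4) to 69.6% (Sstr1 and Sstr4), and the longest exact run common to any pair was 15 to 23 bases. Aligned residues were identical at 46.8% (Sstr3 and Sstr4) to 63.7% (Sstr1 and Sstr4).

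In the naive cortex, 2 of the 4 receptor genes were called between the strains, near the 37.8% of all genes tested that were called. Sstr3 was 1.51-fold lower in AKR than in B6N and Sstr4 was 1.32-fold lower, while Sstr1 and Sstr2 did not pass the test. After OFL the lower level of Sstr3 in AKR was again called, at 1.36-fold, and no other receptor differed between the strains by the test. The share of all genes called there was 16.4%. The ligand gene Sst differed by 0.08 on the log2 scale between the naive strains and by 0.17 after OFL.

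**Figure D1:**
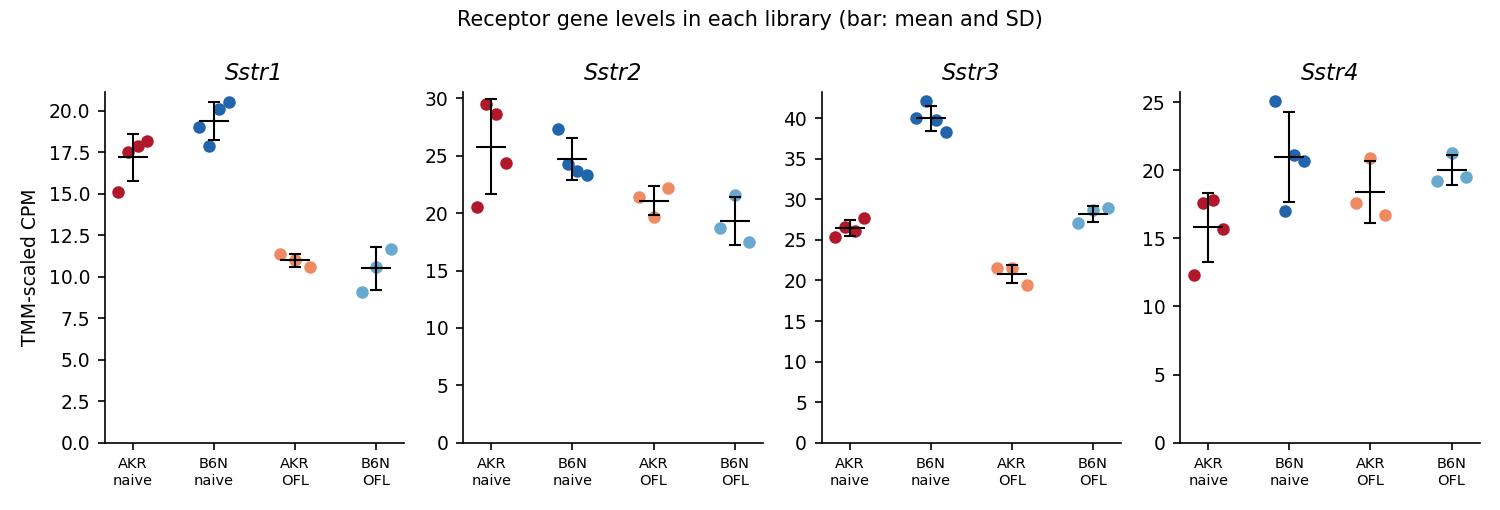
Level of each receptor gene (TMM-scaled CPM, vertical axes starting at 0, each panel with its own scale) in the 14 libraries, by strain and condition, with 1 point per library and black bars for the mean and SD of a group. Sstr3 is the only panel in which the AKR and B6N points do not overlap in either condition: 25.4 to 27.7 against 38.3 to 42.1 CPM in naive libraries and 19.5 to 21.5 against 27.1 to 28.9 CPM after OFL.

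Sstr3, the ciliary receptor, stood at 25.4, 26.6, 26.1 and 27.7 CPM in naive AKR replicates 1 to 4. In naive B6N it stood at 40.0, 42.1, 39.8 and 38.3 CPM. Every naive B6N library was above every naive AKR library, and within each strain the libraries lay close together. The group levels, each with its SD over 4 libraries, were 26.5 ± 0.979 CPM for AKR and 40.0 ± 1.55 CPM for B6N, a log2 difference of -0.59 (SE 0.05, 95% interval -0.69 to -0.49, edgeR adjusted p = 2.6e-08). The coefficients of variation, 3.7% and 3.87%, were about as small as the counts alone allow (4.18% and 3.31%). Of the genes tested in this comparison, 10.9% had a difference at least as large.

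In the OFL libraries Sstr3 was at 21.5, 21.5 and 19.5 CPM in AKR and at 27.1, 28.7 and 28.9 CPM in B6N. The groups again did not overlap. The means were 20.8 ± 1.16 and 28.2 ± 0.968 CPM (SD, n = 3 each), with a log2 difference of -0.45 (SE 0.08, 95% interval -0.61 to -0.29, edgeR adjusted p = 2.6e-04), and 12.7% of the genes tested differed by as much or more. The naive and OFL strain comparisons share no library. Leaving out any 1 library moved the naive value no further than -0.61 to -0.57 and the OFL value no further than -0.48 to -0.40.

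Sstr4, known from the dendrites of cortical and hippocampal pyramidal neurons, was at 12.3, 17.6, 17.8 and 15.7 CPM in naive AKR. In naive B6N it was at 25.1, 17.0, 21.1 and 20.7 CPM. The groups overlapped, since the lowest B6N library (replicate 2) was below AKR replicates 2 and 3. The means, 15.8 ± 2.51 and 21 ± 3.3 CPM (SD, n = 4 each), gave a log2 difference of -0.40 (SE 0.11, 95% interval -0.64 to -0.17, edgeR adjusted p = 0.00785), which 18.6% of the genes tested reached or exceeded. Its coefficient of variation was 15.8% in both strains, against 5.4% and 4.56% from counting. The call held with any 1 naive library left out, with values from -0.49 to -0.30 and adjusted p of at most 0.0383 in edgeR.

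After OFL, Sstr4 was at 17.6, 20.9 and 16.7 CPM in AKR and 19.2, 21.3 and 19.5 CPM in B6N. These overlapping groups had means of 18.4 ± 2.24 and 20.0 ± 1.11 CPM (SD, n = 3 each). The log2 difference was -0.12 (95% interval -0.32 to 0.07, edgeR adjusted p = 0.421). This does not show that the strain difference of Sstr4 was lost: the test of the change itself, given below, did not pass.

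Sstr1, known as an autoreceptor of somatostatin neurons in several brain regions, was at 15.1, 17.5, 17.9 and 18.2 CPM in naive AKR and at 19, 17.9, 20.1 and 20.5 CPM in naive B6N. All but 1 of the B6N libraries were above the highest AKR library. The log2 difference of -0.17 (SE 0.07, 95% interval -0.31 to -0.03) had an unadjusted p of 0.0218 in edgeR and an adjusted p of 0.0561, just beyond the threshold of 0.05. It passed without AKR replicate 4 (-0.20, edgeR adjusted p = 0.0459) or without B6N replicate 2 (-0.21, 0.0245). In the OFL libraries it was at 11.4, 11 and 10.6 CPM in AKR and at 9.11, 10.6 and 11.7 CPM in B6N, where the AKR values fell inside the B6N range (0.06, 95% interval -0.17 to 0.30, edgeR adjusted p = 0.772). Without B6N OFL replicate 1 this value was -0.03.

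Sstr2, the receptor that clinical somatostatin analogues chiefly bind, was at 20.5, 29.5, 28.6 and 24.4 CPM in naive AKR and at 27.3, 24.3, 23.7 and 23.3 CPM in naive B6N. The B6N range lay inside the AKR range. The log2 difference was 0.06 (95% interval -0.12 to 0.25, edgeR adjusted p = 0.615), and it was -0.01 without AKR replicate 2. After OFL the AKR libraries were at 21.4, 19.7 and 22.2 CPM and the B6N libraries at 18.7, 21.6 and 17.5 CPM, again overlapping (0.12, 95% interval -0.07 to 0.31, edgeR adjusted p = 0.417). The intervals do not show that Sstr2 was equal in the strains, and their far ends were at 0.25 and 0.31.

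Counted together, 0 of the 4 receptors were called higher and 2 lower in naive AKR, with a median log2 difference of -0.29, where 37.8% of all 17645 genes tested were called (18.3% higher and 19.5% lower) around a median of 0.0061. After OFL, 0 were called higher and 1 lower, with a median of -0.03, where 16.4% of 17994 genes were called (7.50% higher and 8.86% lower) around a median of 0.0024. That background was 2943 genes, and 1934 without B6N OFL replicate 2. With shares of that size, 2 and 1 calls among 4 genes are near the background. The remaining family gene, Sstr5, had 1 to 10 counts in a library and was not tested. AKR naive replicate 1 was the lowest library of its group for all 4 receptors, and without it the naive differences of Sstr3 and Sstr4 were still called. The part that the AKR genome's distance from the C57BL/6 reference plays in these strain values was not tested.

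**Figure D2:**
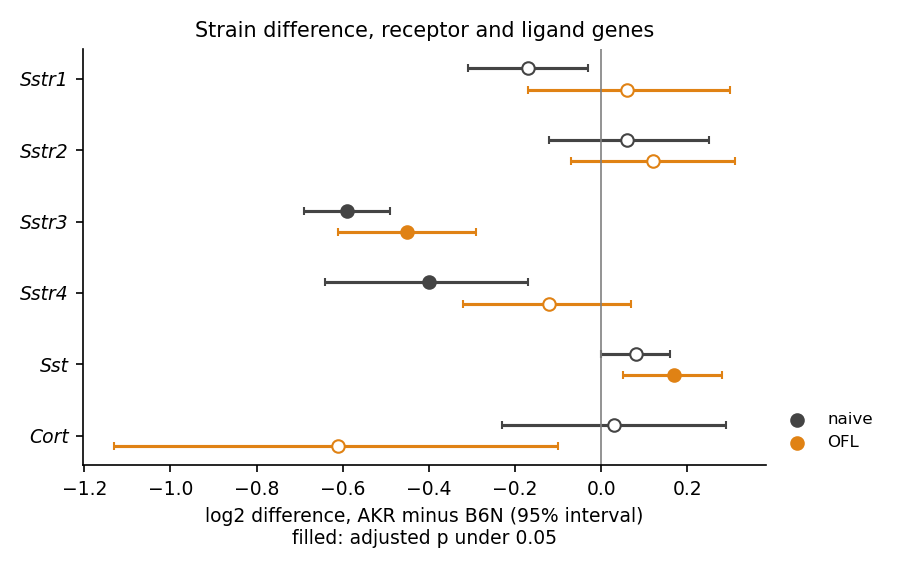
Strain difference (log2, AKR minus B6N, horizontal axis) with its 95% interval for the receptor genes and the ligand genes Sst and Cort, in naive libraries (grey) and OFL libraries (orange), where filled points have an edgeR adjusted p under 0.05. Sstr3 lies left of 0 in both conditions, at -0.59 and -0.45, and Sstr4 is filled only in naive libraries.

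The ligand genes came next. Sst ranged from 153.1 to 170.7 CPM in naive AKR and from 150.7 to 158.9 CPM in naive B6N, a log2 difference of 0.08 (edgeR adjusted p = 0.10). After OFL the AKR libraries (66.3, 64.6 and 70.5 CPM) were all above the B6N libraries (58.8, 59.8 and 59.8 CPM), a log2 difference of 0.17 (SE 0.06, edgeR adjusted p = 0.0473). That call ended with DESeq2 (adjusted p = 0.119), with no filter on low counts (0.0626 in edgeR) and in 5 of 6 fits with 1 library left out (up to 0.189). Cort, the cortistatin gene, was at 1.91 ± 0.123 CPM in B6N after OFL and 1.25 ± 0.269 CPM in AKR (SD, n = 3 each), from 13 to 29 counts per library, and its log2 difference of -0.61 did not pass (edgeR adjusted p = 0.10).

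A view that needs no scaling between libraries is the make-up of the receptor counts within each library. Sstr3 took 34.6%, 29.2%, 28.9% and 32.2% of the receptor counts in naive AKR and 35.9%, 41.5%, 38.0% and 37.3% in naive B6N. After OFL it took 29.9%, 29.4% and 28.2% in AKR and 36.6%, 34.9% and 37.2% in B6N. The strains did not overlap in either condition, with 31.2% ± 2.7 and 38.2% ± 2.38 in naive libraries (SD, n = 4 each) and 29.2% ± 0.874 and 36.2% ± 1.19 after OFL (SD, n = 3 each). Sstr2 moved the other way within this sum, with 28% to 32.3% in naive AKR against 22.6% to 24.5% in naive B6N, and 26.9% to 32.1% against 22.6% to 26.3% after OFL. Shares of 1 sum are tied, so a lower share of Sstr3 raises the others. Set against the peptide gene, the 4 receptors together had 44.8 to 59 counts per 100 Sst counts in naive AKR and 64.6 to 73.9 in naive B6N. After OFL these were 97.9 to 113.1 in AKR and 126.1 to 137.3 in B6N. In both conditions every B6N library had more receptor counts per Sst count than every AKR library. This sum has no length correction, and Sstr3, with the longest exons, took the largest share of it in every B6N library. Sstr1 and Sstr2 were not called between the strains in either condition.

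**Figure D3:**
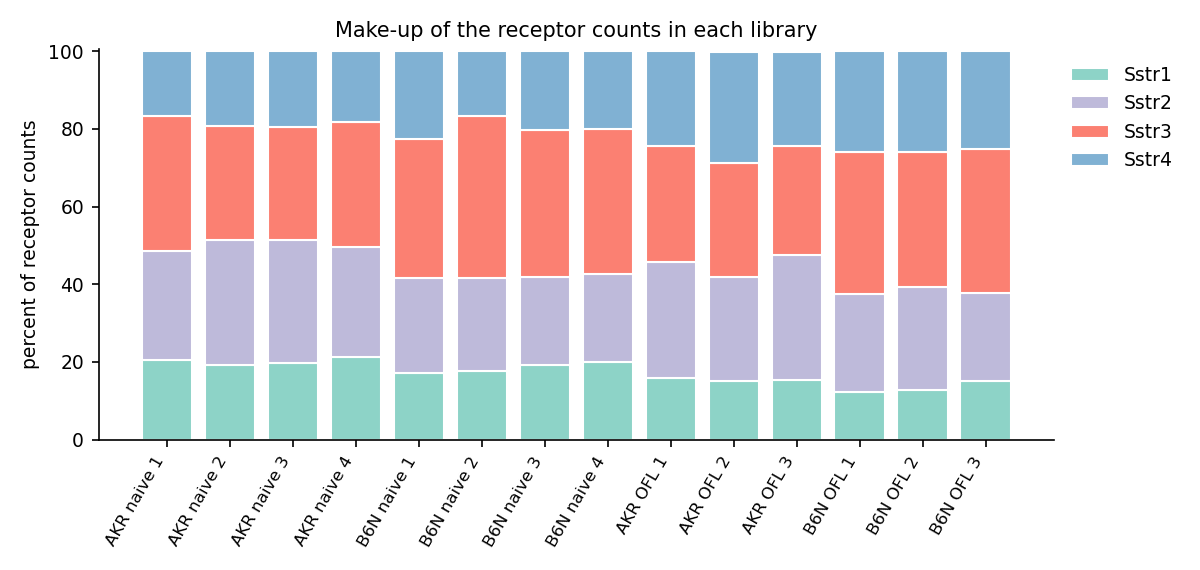
Percent of the summed Sstr1, Sstr2, Sstr3 and Sstr4 counts (vertical axis) taken by each gene in each of the 14 libraries, as raw counts without a length correction. The Sstr3 segment is wider in all B6N libraries (34.9% to 41.5%) than in all AKR libraries (28.2% to 34.6%), and the Sstr4 segment is wider after OFL (24.2% to 28.6%) than in naive libraries (16.8% to 22.5%).

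Levels of different receptors were compared per kilobase of exon. In naive AKR the order was Sstr2 (12 CPM per kilobase), Sstr4 (11.1), Sstr1 (8.40) and Sstr3 (6.13), where Sstr2 and Sstr4, and Sstr4 and Sstr1, overlapped between libraries. In naive B6N it was Sstr4 (14.7), Sstr2 (11.5), Sstr1 (9.48) and Sstr3 (9.27), where Sstr4 overlapped Sstr2 and Sstr1 overlapped Sstr3. Sstr3 was thus last in both strains on this scale, although its CPM before division by length was the highest of the 4, because its exons are the longest. After OFL the order was Sstr4 (12.9), Sstr2 (9.84), Sstr1 (5.38) and Sstr3 (4.82) in AKR, and Sstr4 (14), Sstr2 (9.0), Sstr3 (6.54) and Sstr1 (5.12) in B6N, with no overlap between neighbours. The order depends on the length used. When the same counts were divided by coding length, Sstr3 was first in naive B6N (31.2) and in B6N after OFL (22.0). Sstr2 was then first in AKR in both conditions (22.4 and 18.3). The counts were not restricted to coding bases, so this division raises most the genes with the longest noncoding exon parts, Sstr3 above all.

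The comparison of OFL with naive tissue asked how the receptors stand after the fear test. Sstr1, Sstr2 and Sstr3 were lower in the OFL libraries in both strains, by 1.22-fold to 1.85-fold, and Sstr4 was not called in either. Sstr1 had the largest difference of the 4 receptors. Such calls were common, with 78.7% of all genes tested called in AKR and 78.4% in B6N (38.8% and 38.4% lower). Condition coincides with the deposited table and its library set, so the effect of the test and that of library handling cannot be told apart. Malat1, a nuclear RNA, took 0.0895% to 0.107% of the counts in naive libraries and 0.773% to 0.833% in OFL libraries, and replication-dependent histone genes took 0.00455% to 0.00634% and 0.035% to 0.0375%. Small nucleolar RNA genes took 0.00468% to 0.00537% and 0.0268% to 0.0298%, and the mitochondrial genome 1.56% to 1.90% and 0.752% to 0.85%. The RNA gene Rn7sk took 0.000139% to 0.000351% in naive libraries and 0.0692% to 0.0943% in OFL libraries. The part of these differences in the receptor values was not tested.

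Sstr1 fell from 17.2 ± 1.4 CPM (SD, n = 4) to 11 ± 0.396 CPM (SD, n = 3) in AKR, with every OFL library below every naive one. The log2 difference was -0.64 (SE 0.09, 95% interval -0.83 to -0.46, edgeR adjusted p = 3.2e-07). In B6N it fell from 19.4 ± 1.16 to 10.5 ± 1.32 CPM, again without overlap, by -0.89 (SE 0.09, 95% interval -1.07 to -0.71, edgeR adjusted p = 7.6e-10). Against the whole table these are middling sizes: 48.5% of the genes tested in AKR and 35.8% in B6N differed by as much or more.

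Sstr3 fell in AKR from 26.5 ± 0.979 CPM (SD, n = 4) to 20.8 ± 1.16 CPM (SD, n = 3), a log2 difference of -0.35 (SE 0.06, edgeR adjusted p = 1.5e-05). In B6N it fell from 40.0 ± 1.55 to 28.2 ± 0.968 CPM, a log2 difference of -0.50 (SE 0.06, edgeR adjusted p = 8.1e-09). OFL and naive libraries did not overlap in either strain. The B6N libraries after OFL (27.1 to 28.9 CPM) came close to the naive AKR libraries (25.4 to 27.7 CPM).

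Sstr2 fell from 25.8 ± 4.12 to 21.1 ± 1.27 CPM in AKR, where AKR naive replicate 1 (20.5 CPM) lay among the OFL libraries, with a log2 difference of -0.29 (SE 0.10, edgeR adjusted p = 0.00953). This call ended without AKR naive replicate 2 (-0.22, edgeR adjusted p = 0.0504) and without AKR OFL replicate 2 (-0.25, 0.0538). In B6N it fell from 24.7 ± 1.81 to 19.3 ± 2.09 CPM without overlap, by -0.36 (SE 0.10, edgeR adjusted p = 0.00212). Of the genes tested, 74.4% in AKR and 68.6% in B6N had a difference at least that large.

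Sstr4 was the receptor that was not called in either strain. In AKR its level was 15.8 ± 2.51 CPM in naive and 18.4 ± 2.24 CPM in OFL libraries, a log2 difference of 0.22 (95% interval -0.03 to 0.46, edgeR adjusted p = 0.0981). With upper-quartile scaling in place of TMM this became 0.27 and passed (edgeR adjusted p = 0.0388). In B6N it was 21 ± 3.3 and 20.0 ± 1.11 CPM, a log2 difference of -0.07 (95% interval -0.30 to 0.16, edgeR adjusted p = 0.559), and 0.03 without B6N naive replicate 1. Within the receptor counts its share was 16.8% to 19.6% in naive AKR and 24.2% to 28.6% in AKR after OFL, and 16.8% to 22.5% and 25.1% to 25.9% in B6N, with no overlap between conditions. Sstr1 had the opposite move within this sum, from 19.2% to 21.2% down to 15.0% to 15.9% in AKR and from 17.1% to 19.9% down to 12.3% to 15.1% in B6N.

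**Figure D4:**
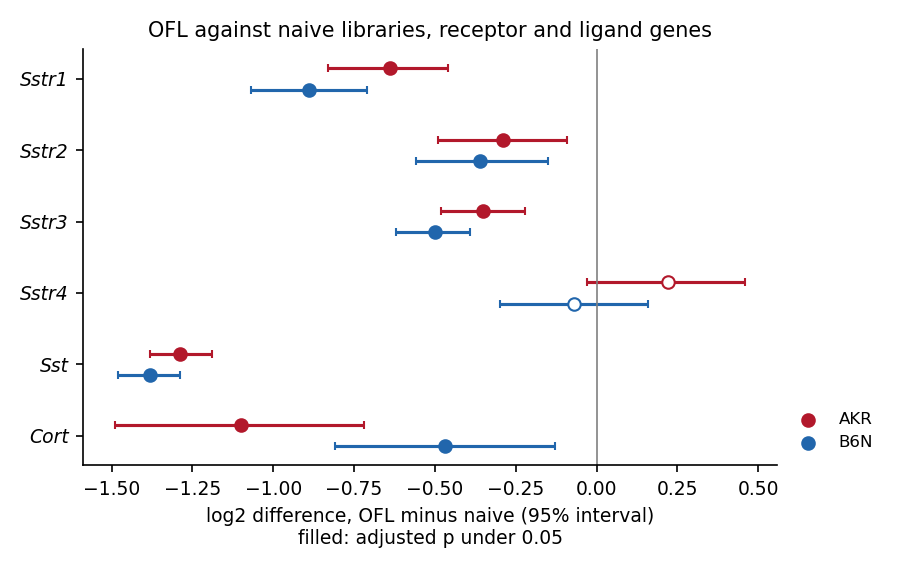
Difference between OFL and naive libraries (log2, horizontal axis) with its 95% interval for the receptor genes and the ligand genes Sst and Cort, in AKR (red) and B6N (blue), where filled points have an edgeR adjusted p under 0.05. Sstr1, Sstr2 and Sstr3 lie left of 0 in both strains, Sstr4 is open in both, and Sst lies farthest left, at -1.29 and -1.38.

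Thus 0 receptors were called higher and 3 lower in each strain, with medians of -0.32 in AKR and -0.43 in B6N. The background was high: 78.7% of 20291 genes were called in AKR (39.8% higher and 38.8% lower, median -0.007) and 78.4% in B6N (40.0% higher and 38.4% lower, median -0.0019), so that 3 of 4 is near the share of all genes. The ligand gene Sst fell by 1.29 in AKR and by 1.38 in B6N (SE 0.05 each), to 67.1 ± 3.0 and 59.4 ± 0.565 CPM (SD, n = 3 each). Cort fell by 1.10 in AKR (edgeR adjusted p = 6.7e-06) and by 0.47 in B6N (0.0129 in edgeR, but 0.0735 with DESeq2 and 0.0535 in edgeR without B6N OFL replicate 1).

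Many marker genes of several cell types, neuronal and not, were also lower in the OFL libraries. Excitatory neuron markers summed to 1634 to 1882 CPM in naive AKR and 966.9 to 1037 CPM in AKR after OFL, and to 1604 to 1745 and 933.6 to 967.3 CPM in B6N, with 4 of 5 called lower in AKR and 5 of 5 in B6N. Inhibitory neuron markers summed to 603.3 to 659.1 and 451.8 to 487.4 CPM in AKR, and to 562.4 to 617.5 and 413.1 to 437.0 CPM in B6N, with 3 of 3 lower in each. Markers of somatostatin interneurons, Sst among them, summed to 394.6 to 424.6 and 248.5 to 277.0 CPM in AKR and to 392.3 to 427.8 and 238.0 to 251.0 CPM in B6N. Of these 7 genes, 4 were called lower and 1 higher in AKR and 5 lower and 1 higher in B6N, and Grin3a was the gene called higher in both (0.25 and 0.26). Sst itself, at 163.8 and 67.1 CPM in AKR, made up much of the fall of the sum. Many markers outside the neurons were lower too, with 4 of 4 microglial genes in AKR and 3 of 4 in B6N (medians -0.59 and -0.55). Endothelial genes were lower for 3 of 4 and 4 of 4 (-0.69 in both), and oligodendrocyte genes for 3 of 4 in each (-0.66 and -0.45). Astrocyte genes were less uniform. Of 4, 2 were called lower and 0 higher in AKR, and 3 lower and 1 higher in B6N (medians -0.12 and -0.19). Of 5 striatal projection neuron genes tested, 3 were lower and 1 higher in each strain. Of all genes tested, 38.8% were called lower in AKR and 38.4% in B6N. In bulk tissue, fewer cells of a type and less RNA per cell cannot be told apart. Between the naive strains the sums of the 3 neuronal lists overlapped. After OFL the inhibitory sums did not overlap between the strains (451.8 to 487.4 CPM in AKR against 413.1 to 437.0 CPM in B6N), and the excitatory and somatostatin interneuron sums did. Their part in the receptor values was not tested.

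Whether the OFL difference itself differed between the strains was tested as an interaction, the change in AKR minus the change in B6N. The values were 0.24 for Sstr1 (95% interval -0.02 to 0.51, edgeR adjusted p = 0.339), 0.07 for Sstr2 (-0.22 to 0.36, 0.879), 0.16 for Sstr3 (-0.02 to 0.33, 0.362) and 0.29 for Sstr4 (-0.05 to 0.63, 0.388). All 4 were above 0 and none was called, with 0 of 4 at an unadjusted p under 0.05 in edgeR and 0 called by DESeq2. Of all genes tested, 5.15% were called (3.61% higher and 1.54% lower). The strain difference of Sstr4, called in naive and not in OFL libraries, was thus not shown to differ between the conditions.

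The proteins that make, carry and read the somatostatin signal were looked at as lists, with counts to be read against the share of all genes called. Of 13 genes for the ligands and their processing, 5 were called higher and 2 lower in naive AKR, with a median log2 difference of 0.08, where 18.3% of all genes tested were called higher and 19.5% lower. Scg5, the chaperone of the convertase PC2, was 361.7 CPM in AKR and 173.1 CPM in B6N (1.06, SE 0.04, edgeR adjusted p = 4.1e-13). Pcsk1, the convertase PC1/3, was 77.2 and 116.1 CPM (-0.59, SE 0.06), and Pcsk2, which encodes PC2, 428.3 and 376.7 CPM (0.19, SE 0.03). After OFL 3 were higher and 2 lower, beside 7.50% and 8.86% of all genes, among them Scg5 (1.02) and Pcsk1 (-0.54) again.

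Of 12 Gi/o protein genes, 2 were higher and 3 lower in naive AKR (median 0.05), and 0 higher and 2 lower after OFL (median -0.03), which is near the 37.8% and 16.4% of all genes called in either direction. Gnb5, the beta subunit that pairs with a class of RGS proteins, was lower in AKR in both, by -0.34 (SE 0.04) and -0.37 (SE 0.05). Of 14 effector genes tested (of 15 listed), 1 was higher and 5 lower in naive AKR, with a median of -0.03, and 2 were higher and 2 lower after OFL. These effector counts stand beside the same 37.8% and 16.4% of all genes. The GIRK channel gene Kcnj9 was 163.0 CPM in naive AKR and 214.8 CPM in naive B6N (-0.40, SE 0.03, edgeR adjusted p = 6.7e-08), and -0.38 after OFL. Kcnj6, another GIRK subunit, was lower in naive AKR by -0.28 (SE 0.05).

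Of 12 genes for receptor desensitisation and G protein regulation, 3 were higher and 3 lower in naive AKR (median 0.06), and 1 higher and 2 lower after OFL, beside 37.8% and 16.4% of all genes called. Among the receptor kinase genes, Grk3 was at -0.27 and Grk5 at 0.51 in naive libraries, and -0.20 and 0.48 after OFL. Grk6 was higher in naive AKR (0.14, SE 0.04) and not called after OFL. Grk2, named here to complete the kinases of the list, was not called in either. Of 12 scaffold and phosphatase genes, 1 was higher and 4 lower in naive AKR (median -0.03), and 2 higher and 0 lower after OFL (median 0.07), beside the same shares. Shank2, a postsynaptic scaffold, was -0.35 in naive libraries and had an interaction of 0.50 (SE 0.08, edgeR adjusted p = 4.2e-04), and 4 of these 12 genes were called higher in the interaction: Shank2, Shank1 (0.40), Ptprj (0.25) and Dlg2 (0.19). Of all genes, 3.61% were called higher in the interaction and 1.54% lower.

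Because Sstr3 sits in the cilium, 23 genes of the neuronal primary cilium were listed. In naive AKR 3 were higher and 4 lower, with a median log2 difference of 0.00, a smaller share than the 37.8% of all genes called. The transport gene Rabl2 was 24.2 CPM in AKR and 36.0 CPM in B6N (-0.57, SE 0.05, edgeR adjusted p = 1.5e-07), Bbs7 was higher (0.35) and Bbs1 lower (-0.26), both parts of the BBSome, the complex that moves receptors in and out of cilia. After OFL 0 of the 22 tested were higher and 2 lower, Rabl2 (-0.46) and Bbs1 (-0.25), where 16.4% of all genes were called, and the median was -0.03.

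In the OFL minus naive comparisons, 8 of 12 Gi/o genes were lower and 2 higher in AKR (median -0.43), and 7 lower and 3 higher in B6N (median -0.42). Gnai2 was at -1.80 and -1.65 and Gng3 at -1.64 and -1.68 in AKR and B6N. Effectors went the other way, with 9 of 14 higher and 2 lower in AKR (median 0.45) and 10 higher and 3 lower in B6N (median 0.41), among them Kcnj6 (1.46 and 1.14), Adcy9 (0.81 and 0.64) and Kcnj3 (0.89 and 1.03). The GIRK gene Kcnj9, named here after its value was seen, was lower in both strains (-0.41 and -0.43). Desensitisation genes were lower for 7 and higher for 2 of 12 in AKR (median -0.38), and lower for 7 and higher for 3 in B6N (median -0.21). Scaffold genes were higher for 5 and lower for 6 in AKR and higher for 5 and lower for 7 in B6N. Cilium genes were higher for 9 and lower for 9 in AKR and higher for 10 and lower for 7 in B6N, and ligand and processing genes higher for 4 and lower for 5, and higher for 5 and lower for 5. Beside these counts, 39.8% of all genes tested were called higher and 38.8% lower in AKR, and 40.0% and 38.4% in B6N. For the interaction, the ligand and desensitisation lists had 0 calls. Gi/o had 1 lower (Gnb4) and effectors 2 higher (among them Kcnj6 at 0.32). The cilium had 1 higher and 1 lower (Dync2h1 at 0.21 and Bbs7 at -0.34). Of all genes, 3.61% were called higher and 1.54% lower in the interaction.

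The genes most like each receptor were found among 11455 genes by the root mean squared difference of log2 levels over the 14 libraries, each gene centred on its own mean. For Sstr3 these included Wars (0.07) and S100a10 (0.09), where the median over all candidates was 0.40. For Sstr1 they were Arpc2, Ift22 and Ier3 (0.09 each, median 0.39), for Sstr2 Sulf2, Ehd4 and Prrt3 (0.10 each, median 0.30), and for Sstr4 Spsb1, Umps and Tmem178 (0.14 each, median 0.36). This measure holds both the OFL minus naive difference and the strain difference. Centred within naive and within OFL libraries, the closest were Wars (0.05), Eif3j1 (0.06) and Klhl9 (0.06) for Sstr3, Cnr1 (0.06), Slc7a4 and Scn3b (0.07 each) for Sstr1, Tbr1 (0.08), Grik3 and Lmo1 (0.09 each) for Sstr2, and Bcl11b (0.10), Slit3 and Spsb1 (0.11 each) for Sstr4. This second measure was not centred within strains, so it still holds the strain difference. Tbr1 and Bcl11b are transcription factor genes of deep cortical layers, and Cnr1 encodes the cannabinoid receptor of presynaptic terminals. The layer or cell type that expresses a receptor was not tested. The libraries share depth and tissue piece across all genes, so the values of both measures are descriptions of likeness.

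Neither gene next to Sstr3 was lower in AKR. C1qtnf6, 5592 bases away, was higher in naive AKR (0.40, SE 0.15, edgeR adjusted p = 0.0395) at a mean of only 1.52 CPM. Rac2, 14482 bases away on the other side, was at 0.42 in naive libraries (edgeR adjusted p = 0.10), at a mean of 1.9 CPM. Thbd, 7699 bases from Sstr4, was at -0.15 in naive libraries (edgeR adjusted p = 0.303) and Foxa2, on the other side, was not tested. Clec14a, 50276 bases from Sstr1, was higher in naive AKR by 0.64 (SE 0.13, edgeR adjusted p = 9.0e-04), and Ttc6 was not tested. Cog1, 23141 bases from Sstr2, was at -0.04 in naive libraries (edgeR adjusted p = 0.495), and Sox9, at 831582 bases, was higher by 0.26 (SE 0.05, edgeR adjusted p = 1.0e-03). Between the OFL strains no tested neighbour was called. The values there were 1.02 for C1qtnf6 (SE 0.41, edgeR adjusted p = 0.101), 0.29 for Clec14a (0.373), 0.07 for Sox9 (0.684) and 0.28 for Thbd (0.0603).

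Sst and 3 of its receptor genes were lower in the OFL libraries, and the start regions of Sst, Cort, Sstr2, Sstr3 and Sstr4 were searched, while that of Sstr1 was not analysed here. The search was for the palindrome TGACGTCA, the cyclic AMP response element first described in the somatostatin gene, for its shorter form TGACG, and for the E-box CACGTG and its core ACGTG, which bHLH-PAS proteins are known to bind. Windows ran from 250 bases before to 50 after the RefSeq start (GRCm38.p6), on both strands, where each TGACGTCA holds 2 of the shorter form and each CACGTG 2 cores. Sstr3 had 2 starts. The full palindrome was in 588 of 32851 windows (1.79%), the shorter form in 20.8%, the E-box in 7.15% and its core in 19.6%. The Sstr2 sequence below is the 250 bases before its start, chr11:113619077-113619326 on the plus strand, and the others are short stretches of Sst, chr16:23890874-23890903 on the minus strand, and of the upstream start of Sstr3, chr15:78544349-78544378 on the minus strand, with the matches in capitals.
Sstr2: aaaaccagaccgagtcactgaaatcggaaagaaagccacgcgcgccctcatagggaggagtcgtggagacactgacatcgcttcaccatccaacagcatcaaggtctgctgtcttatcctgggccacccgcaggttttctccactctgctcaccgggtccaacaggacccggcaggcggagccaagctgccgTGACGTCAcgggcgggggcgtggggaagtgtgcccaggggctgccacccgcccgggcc
Sst: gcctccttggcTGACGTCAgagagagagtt
Sstr3: tcCACGTGtcctggagatggggggTGACGt
Sstr2 held the full palindrome with its first base 58 bases before the start, and Sst held it 48 bases before. Sstr3 held a single E-box, 31 bases before its upstream start, and a TGACG on the same stretch. That window held 3 ACGTG cores, with first bases 31 and 30 bases before the start and 45 bases after it. The window of the other Sstr3 start held no match to any of these motifs. The Sstr4 window held none of the 4 either, and Cort held only a TGACG. A match is only a run of letters, and binding was not measured.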

How the data were processed

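Per the labels' protocols, total RNA was taken from anterior cingulate cortex with Trizol, and libraries were made with a TruSeq RNA v2 kit. Per the submitters' processing notes, CASAVA, cutadapt 2.7, TopHat2 2.1.1, HTSeq and edgeR were used with GRCm38; the annotation release and the strand setting of the counting are not given in the sources used here. The authors deposited raw counts per Ensembl gene in 1 table for naive and 1 for OFL libraries, which served as input. Total counts were 13487311 to 25780227 in the 14 libraries, from 19073921 in naive and up to 14526253 in OFL libraries. Deposited tables for single libraries were not used. GENCODE names for GRCm38 matched 53274 of 53465 genes.

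Genes that passed edgeR's filter by group were tested with edgeR 4.0.16 (R 4.3.3, limma 3.58.1): TMM scaling, quasi-likelihood F-test, two-sided, Benjamini-Hochberg adjustment over all genes tested, threshold 0.05. Strain was tested within each table, and the OFL minus naive differences and their interaction in 1 fit of all 14 libraries, so these comparisons share libraries with each other and with the strain comparisons. Adjusted p-values after an edgeR value in the same sentence come from the same tool. Levels are TMM-scaled CPM, intervals are 95%, and the coefficient of variation from counting is 1 over the square root of the mean count. The likeness measure used genes of at least 5 CPM and a prior count of 2. Alternatives were DESeq2 1.42.0, other size factors, other filters, a replicate block, other sets of libraries in the fit, coding length and leaving out each library. The tests were tried on simulated counts. The members, gene lists, marker lists and motifs were chosen with earlier results of these data known. The text names the 4 receptors, Sst and Cort throughout, at most 4 called genes per list in order of p, the 3 most alike genes of each receptor, and the nearest protein-coding gene on each side. A few genes that this rule names are not reported here.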

Additional observations from a re-analysis of the deposited data

How the results depend on the processing

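Of 136 values of the 4 receptors under other tools, scalings, filters, sets of libraries and the replicate block, 134 kept their direction and their side of the threshold. The exceptions were Sstr4 in OFL minus naive AKR with upper-quartile factors (0.27) and Sstr1 between the naive strains with the replicate block (-0.17, edgeR adjusted p = 0.0486), which passed there; the cause was not tested. Libraries with the same replicate number were not paired in their deviations (correlations of -0.0296 to 0.0189 in naive and -0.0165 to 0.0439 in OFL libraries), and the replicate block also ended the OFL strain call of Sst (0.17, edgeR adjusted p = 0.0548). With 1 library left out, 216 of 224 receptor values were unchanged in direction and call. Ranges where one was not were -0.21 to -0.12 (Sstr1, naive strains), -0.01 to 0.15 (Sstr2, naive strains), -0.03 to 0.16 (Sstr1, OFL strains), -0.38 to -0.22 (Sstr2, OFL minus naive AKR), -0.16 to 0.03 (Sstr4, OFL minus naive B6N) and -0.03 to 0.16 (Sstr2, interaction). Cort between naive strains ranged from -0.01 to 0.06. Genes called between OFL strains numbered 1934 to 3514, lowest without B6N OFL replicate 2. The same counts, not restricted to coding bases, were also divided by coding length in kilobases. In naive AKR, naive B6N, AKR OFL and B6N OFL this gave 14.7, 16.5, 9.38 and 8.92 CPM for Sstr1 and 22.4, 21.4, 18.3 and 16.7 for Sstr2. It gave 20.6, 31.2, 16.2 and 22.0 for Sstr3, and 13.7, 18.1, 15.9 and 17.3 for Sstr4, since the length left out differs between genes. Counting alone gave Sstr1 a coefficient of variation of 8.09% and 8.16% in the OFL groups, the coarsest of the receptors.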
